A study of Mus musculus with 4 samples.

Results

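The genes described here are 10 acute phase genes of the mouse: Saa1, Saa2 and Saa3 (serum amyloid A), Lcn2 (lipocalin 2), Orm1 and Orm2 (orosomucoid), Lrg1 (leucine-rich alpha-2-glycoprotein), Hp (haptoglobin), Cp (ceruloplasmin) and Serpina3n (a serine protease inhibitor). They were found by gene symbol among the 55401 genes counted in each library, and all 10 were present. The set was selected on the ratios of its genes between these libraries (CLP + MLT over CLP in each tissue, and kidney over heart), so its values are a description, and no p-value is given for them.

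The study asked how melatonin acts in septic kidney injury, and RNA-seq was made from kidney and heart of C57BL/6 mice. There were 4 libraries, 1 each of CLP kidney, CLP + MLT kidney, CLP heart and CLP + MLT heart. All came from mice with CLP (cecal ligation and puncture), an operation in which gut bacteria leak into the abdomen, and MLT is melatonin. Sham libraries were not used here, so no level could be set against that of uninjured tissue. Per the study's methods the mice were males of 8 weeks, melatonin was given in drinking water at 25 µg/ml for 14 days before the operation, and kidneys were taken 24 h after it. The same methods do not describe the hearts, so their dose and time are unknown here. The titles of the melatonin libraries carry the tag MLT4, whose number is not explained. Whether a library came from 1 mouse or a pool is not stated either, and with 1 library per group no difference could be set against the spread between mice.

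Acute phase proteins are plasma proteins whose concentration rises in infection and injury. Hepatocytes make most of them in response to IL-6, which acts through STAT3, and to IL-1 and TNF, which act through NF-kB and C/EBP factors. Several are also made by epithelia, vessels, macrophages and fat: Lcn2 is known as a marker of tubular injury, and Saa3 is made in the mouse mainly outside the liver. Their roles range from binding lipoproteins, bacterial iron carriers and free haemoglobin to blocking proteases.

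The upstream sequences of 5 genes are shown. Saa1 and Saa2 shared their promoter almost base for base and yet differed in level in kidney, while in heart their levels were close. Lcn2 and Lrg1 were abundant in the CLP libraries of both tissues, and Saa3 in CLP heart. Cp, with at least 94.0 CPM in every library, is not shown. Each sequence holds the 250 bases before the RefSeq start of the gene, 5′ to 3′ on the strand of the gene, in build GRCm38.p6. The windows lie at chr7:46742981-46743230 (− strand, Saa1), chr7:46751583-46751832 (+ strand, Saa2), chr7:46715677-46715926 (− strand, Saa3), chr2:32387740-32387989 (− strand, Lcn2) and chr17:56121947-56122196 (− strand, Lrg1). Capitals mark matches to the C/EBP motif TTGCNNAA or to the NF-kB motif, searched on both strands.
Saa1: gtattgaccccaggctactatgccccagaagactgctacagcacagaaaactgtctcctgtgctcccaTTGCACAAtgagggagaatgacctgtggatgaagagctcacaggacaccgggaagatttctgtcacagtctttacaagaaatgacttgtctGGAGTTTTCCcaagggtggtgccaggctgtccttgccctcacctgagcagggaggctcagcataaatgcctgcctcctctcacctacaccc
Saa2: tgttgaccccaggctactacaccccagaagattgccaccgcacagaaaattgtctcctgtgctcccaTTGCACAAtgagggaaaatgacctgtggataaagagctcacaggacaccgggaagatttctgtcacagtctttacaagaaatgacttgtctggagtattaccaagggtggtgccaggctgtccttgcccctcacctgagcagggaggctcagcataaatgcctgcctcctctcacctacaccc
Saa3: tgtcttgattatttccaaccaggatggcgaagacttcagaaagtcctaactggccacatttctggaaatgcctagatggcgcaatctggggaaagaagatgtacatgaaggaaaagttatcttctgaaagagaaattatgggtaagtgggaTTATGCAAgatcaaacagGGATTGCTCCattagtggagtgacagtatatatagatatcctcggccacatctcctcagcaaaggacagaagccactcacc
Lcn2: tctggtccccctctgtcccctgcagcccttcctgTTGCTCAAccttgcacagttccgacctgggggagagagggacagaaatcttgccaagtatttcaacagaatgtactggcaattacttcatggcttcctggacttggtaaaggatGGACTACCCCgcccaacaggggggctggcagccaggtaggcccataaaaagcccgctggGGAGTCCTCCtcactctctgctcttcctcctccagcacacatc
Lrg1: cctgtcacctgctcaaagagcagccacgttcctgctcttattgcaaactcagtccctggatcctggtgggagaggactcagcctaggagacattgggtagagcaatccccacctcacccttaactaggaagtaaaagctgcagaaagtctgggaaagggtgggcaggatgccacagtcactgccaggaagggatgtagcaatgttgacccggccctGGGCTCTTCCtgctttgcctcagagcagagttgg

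A RefSeq window was found for 8 of the 10 genes, and not for Orm1 and Hp. The Saa1 and Saa2 windows were identical at 94.8% of aligned bases, against 48.9% for Saa1 and Saa3. A C/EBP match began 182 bases before the start in Saa1 and 183 bases before it in Saa2. An NF-kB match began 91 bases before the start in Saa1, whereas the Saa2 window held none. Saa3 held both motifs, at 99 bases (C/EBP) and 81 bases (NF-kB). In Lcn2 the NF-kB matches began at 102 and 43 bases and the C/EBP match at 216 bases, and in Lrg1 an NF-kB match began at 34 bases. An NF-kB match was present in 5 of the 8 genes, the fifth being Serpina3n, and in 23.2% of all 32851 windows of this length. A C/EBP match was present in 6 of the 8 genes and in 9.56% of all windows. The 8 genes had 9 windows, because Cp had 2, and a gene was counted if any of its windows held a match. Window 1 of Cp held no C/EBP match and window 2 held 1, so the count per gene is not quite like the share per window. The STAT motif TTCNNNGAA was found in 0 of the 8 and in 7.02% of all windows. No base lay in 2 motifs at once. A match is a string of letters in a short window and was not tested as a binding site.

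Reads counted on genes numbered 22927905 in CLP kidney, 16474248 in CLP + MLT kidney, 16623050 in CLP heart and 15883057 in CLP + MLT heart. Levels are given as CPM (counts per 1000000 reads on genes, scaled by the TMM method over the 4 libraries), and each ratio was scaled over its own 2 libraries, with 0.5 added to every count beforehand. A ratio of at least 1.5 in either direction is called past the fold, among genes averaging 10 counts or more. Intervals are exact 95% intervals on the counts and cover counting error only. Reads copied by PCR do not stand for separate molecules, so even this error may be understated. Reads aligned to several places, which were not counted, made up 23.6% to 38.6% of the reads in the files. In transcript stretches of 50 bases, 14.8% of Saa1, 9.12% of Saa2, 1.78% of Saa3, 20.4% of Orm1, 22.7% of Orm2 and 6.90% of Serpina3n were shared with another gene, so counts within these families are uncertain. The other 4 genes shared none. At 150 bases no stretch of any member was shared, and the length of the reads is not stated in the sources.

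The highest level of each of the 10 genes was in a CLP library. It was CLP kidney for Saa1, Saa2, Lcn2, Orm2 and Cp, and CLP heart for Saa3, Orm1, Lrg1, Hp and Serpina3n. The lowest level was in CLP + MLT kidney for 9 of them and in CLP + MLT heart for Lcn2. In these bulk samples fewer cells of a type and less RNA per cell cannot be told apart.

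**Figure D1:**
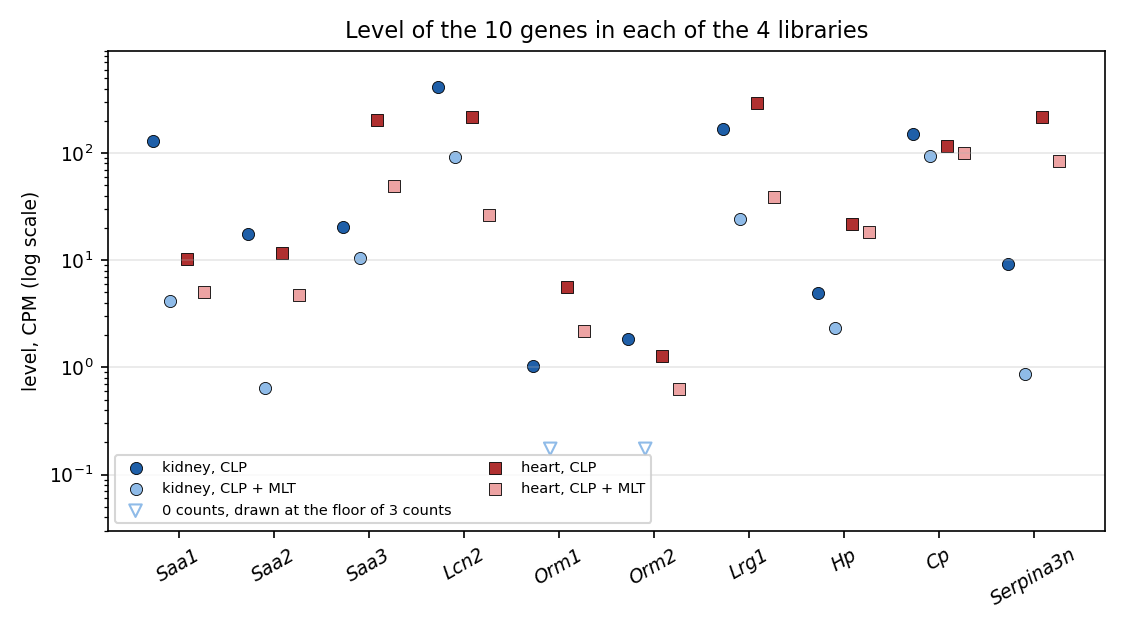
Level of each gene in the 4 libraries, in CPM on a log axis; circles are kidney, squares are heart, dark symbols are CLP and light symbols are CLP + MLT, with 1 library each. Open triangles are 0 counts, drawn at the floor of 3 counts. In each tissue every light symbol sits below the dark one, closest together for Cp.

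Serum amyloid A proteins bind high density lipoprotein and draw in leukocytes. Saa1 (ENSMUSG00000074115.5, GRCm38 chr7:46740497-46742980, − strand) had 129 CPM in CLP kidney and 4.17 CPM in CLP + MLT kidney, from 3546 and 72 counts. In heart it had 10.3 CPM in CLP and 5.06 CPM in CLP + MLT, from 153 and 72 counts. CLP kidney stood apart from the other 3 libraries. As a log2 ratio, CLP + MLT over CLP came to −4.94 (−5.31 to −4.61) in kidney, which is 30.8-fold lower, and to −1.07 (−1.50 to −0.66) in heart.

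Saa2 (ENSMUSG00000057465.5, chr7:46751790-46754313, + strand) is the neighbour of Saa1 and encodes nearly the same plasma protein. It had 17.6 CPM in CLP kidney, 0.637 CPM in CLP + MLT kidney, 11.8 CPM in CLP heart and 4.71 CPM in CLP + MLT heart. The CLP kidney level of Saa2 was thus close to its CLP heart level, unlike that of Saa1. Its log2 ratio was −4.74 (−5.80 to −3.94) in kidney, resting on 484 and 11 counts, and −1.36 (−1.80 to −0.95) in heart, on 174 and 67 counts. The kidney intervals of Saa1 and Saa2 overlapped, and so did their heart intervals.

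Saa3 (ENSMUSG00000040026.8, chr7:46711998-46715700, − strand) ran the other way between tissues. It had 20.4 CPM in CLP kidney, 10.6 CPM in CLP + MLT kidney, 202 CPM in CLP heart and 49.1 CPM in CLP + MLT heart. Both heart libraries were above both kidney libraries. Its log2 ratio was −0.94 (−1.19 to −0.70) in kidney and −2.09 (−2.21 to −1.97) in heart, that is 1.92-fold and 4.25-fold lower.

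The make-up of the family differed between the tissues. Of the counts on Saa1 and Saa2, Saa1 held 88.0% (86.9 to 89.0) in CLP kidney and 86.7% (77.5 to 93.2) in CLP + MLT kidney. In heart it held 46.8% (41.3 to 52.4) in CLP and 51.8% (43.2 to 60.3) in CLP + MLT. The intervals overlapped between the conditions within a tissue and not between the tissues. Saa3 held 12.2% of the counts on the 3 genes in CLP kidney and 68.8% in CLP + MLT kidney, against 90.1% in CLP heart and 83.4% in CLP + MLT heart. In CLP + MLT kidney Saa3 thus made up the larger part of the counts on the family, although its level there was the lowest of the 4.

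**Figure D2:**
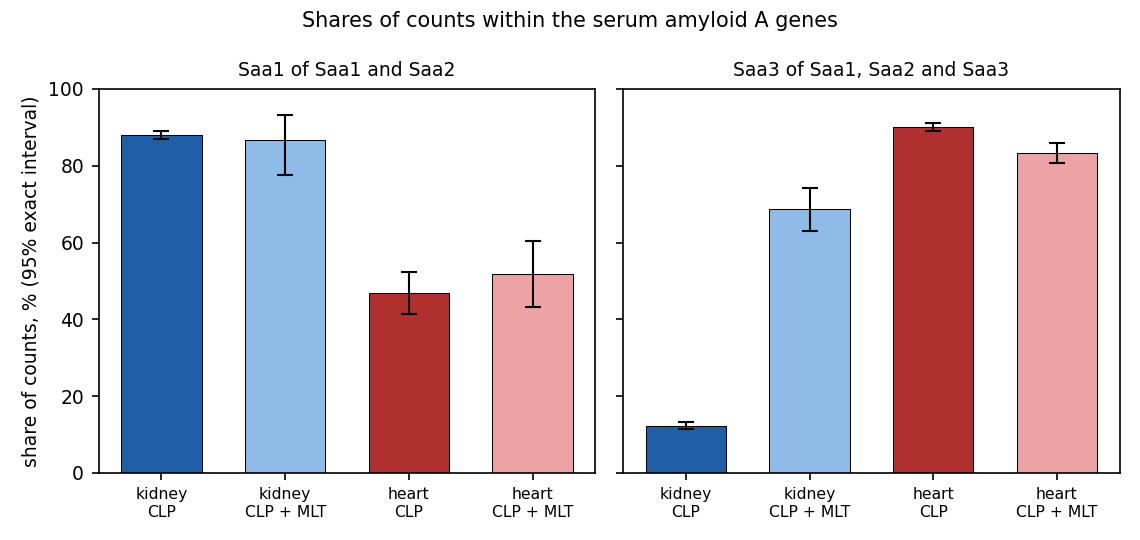
Share of counts in percent within the serum amyloid A genes, with Saa1 out of Saa1 and Saa2 on the left and Saa3 out of all 3 genes on the right. Bars are the 4 libraries and error bars are exact 95% intervals. The share of Saa1 was near 87% in both kidney libraries and near 50% in both heart libraries.

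Lcn2 (ENSMUSG00000026822.14, chr2:32384633-32388252, − strand) encodes a secreted lipocalin that takes up bacterial siderophores and so withholds iron from bacteria. It had 413 CPM in CLP kidney, and 92.7 CPM in CLP + MLT kidney. In heart it had 218 CPM in CLP and 26.2 CPM in CLP + MLT. Each CLP library was above each CLP + MLT library. The log2 ratio was −2.15 (−2.23 to −2.08) in kidney, from 11346 to 1600 counts, and −3.10 (−3.26 to −2.95) in heart, from 3224 to 372 counts. This is 4.45-fold lower in kidney and 8.60-fold lower in heart.

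Lrg1 (ENSMUSG00000037095.8, chr17:56119678-56122001, − strand) encodes a secreted glycoprotein that modifies TGF-beta signalling in vessels through endoglin. It had 169 CPM in CLP kidney, 24.2 CPM in CLP + MLT kidney, 296 CPM in CLP heart and 38.5 CPM in CLP + MLT heart. Here too both CLP libraries were above both CLP + MLT libraries. The log2 ratio was −2.80 (−2.94 to −2.65) in kidney and −2.99 (−3.12 to −2.86) in heart. Lrg1 was the member whose ratios were closest in the 2 tissues, 6.95-fold and 7.94-fold lower.

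The orosomucoids, also called alpha-1-acid glycoproteins, are carriers of lipophilic compounds in plasma. Orm1 (ENSMUSG00000039196.2, chr4:63344560-63348163, + strand) had 28 counts in CLP kidney, 0 in CLP + MLT kidney, 83 in CLP heart and 31 in CLP + MLT heart. Orm2 (ENSMUSG00000061540.3, chr4:63362449-63365878, + strand) had 51, 0, 19 and 9 counts in the same order. Their levels were at most 5.61 CPM (Orm1 in CLP heart). Against a floor of 3 counts in the CLP + MLT kidney library, Orm1 was at least 5.86-fold lower there and Orm2 at least 10.7-fold lower. In heart the log2 ratio was −1.40 (−2.06 to −0.80) for Orm1, and −1.03 (−2.40 to 0.15) for Orm2, whose interval reached above 0. Orm1 made up 35.4% (25 to 47.0) of the counts on the pair in CLP kidney and 81.4% (72.4 to 88.4) in CLP heart. The 2 principal transcripts were identical at 91.0% of aligned bases, so this split depends on how the counting treated shared reads.

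Hp and Cp encode plasma proteins that handle haemoglobin and iron. Hp (ENSMUSG00000031722.10, chr8:109575128-109579172, − strand), whose protein binds free haemoglobin for uptake by macrophages, had 4.92 CPM in CLP kidney, 2.32 CPM in CLP + MLT kidney, 21.6 CPM in CLP heart and 18.4 CPM in CLP + MLT heart. Cp (ENSMUSG00000003617.16, chr3:19957054-20009145, + strand), a copper ferroxidase that helps to load iron onto transferrin, had 151, 94.0, 117 and 101 CPM in the same order. Of the 10 genes Cp varied least over the 4 libraries. The log2 ratio of Hp was −1.08 (−1.63 to −0.56) in kidney and −0.28 (−0.52 to −0.04) in heart. That of Cp was −0.68 (−0.76 to −0.59) in kidney and −0.26 (−0.36 to −0.16) in heart. Cp overlaps Hps3 on the other strand, and the library kit does not mark strand, so reads from the overlap cannot be told apart.

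Serpina3n (ENSMUSG00000021091.8, chr12:104406729-104414329, + strand) encodes an inhibitor of serine proteases such as those of leukocytes. It had 9.29 CPM in CLP kidney, 0.869 CPM in CLP + MLT kidney, 216 CPM in CLP heart and 84.9 CPM in CLP + MLT heart. Each heart library was far above each kidney library. The log2 ratio was −3.38 (−4.27 to −2.67) in kidney, from 255 to 15 counts, and −1.40 (−1.49 to −1.30) in heart, from 3201 to 1207 counts.

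In kidney, all 10 genes were lower in the CLP + MLT library past the fold, in a comparison where 11.6% of the 16932 genes tested were lower past the fold. The choice of the genes used this contrast, so nothing is read from the count. The whole interval lay past the fold for 9 of them, the exception being Hp, and for 3.40% of all genes. The median log2 ratio of the 10 was −3.09, or −2.68 with Orm1 and Orm2 at their bounds, and the median of all genes was 0.00.

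In heart, 8 of the 10 genes were lower in the CLP + MLT library past the fold, where 12.6% of the 15871 genes tested were. The other 2 were Hp and Cp, which were lower by less than the fold. The whole interval lay past the fold for 7 genes, and for 4.45% of all genes. The median log2 ratio was −1.38, against 0.00 for all genes.

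**Figure D3:**
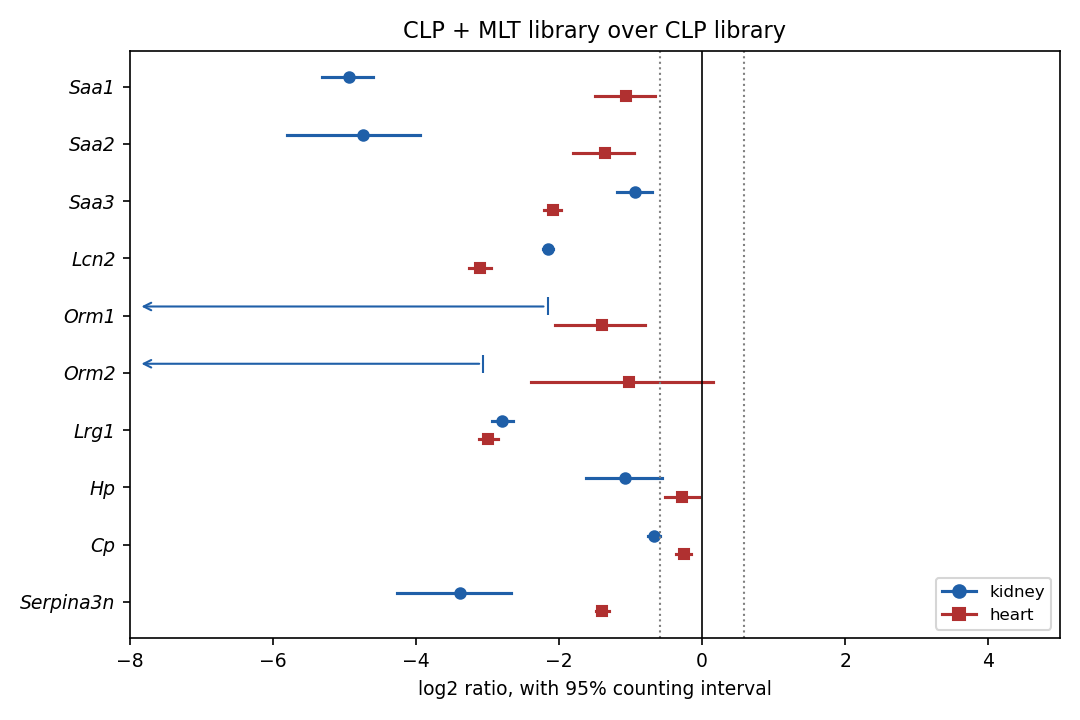
Ratio (log2) of the CLP + MLT library over the CLP library for each gene, with exact 95% counting intervals as bars; circles are kidney and squares are heart. Dotted lines mark a ratio of 1.5 in either direction, and arrows start at the bound for a gene with 0 counts in the CLP + MLT kidney library. Every point lies left of 0, and kidney lies left of heart for Saa1, Saa2 and Serpina3n while heart lies left of kidney for Saa3 and Lcn2.

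The size of the ratios differed between the tissues. Of the 8 genes without a library at 0 counts, the difference between the heart and kidney log2 ratios had an interval above 0 for 5 genes, meaning that the kidney ratio was the lower one. These were Saa1 at 3.87 (3.32 to 4.42), Saa2 at 3.38 (2.44 to 4.52), Serpina3n at 1.99 (1.26 to 2.88), Hp at 0.80 (0.22 to 1.40) and Cp at 0.42 (0.29 to 0.55). The interval was below 0 for 2 genes, Saa3 at −1.15 (−1.42 to −0.87) and Lcn2 at −0.95 (−1.13 to −0.78), whose heart ratio was the lower one. For Lrg1 the difference was −0.19 (−0.39 to 0.00). These intervals hold counting error only, and the spread between mice was not measured.

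Added up, the 10 genes took 25171 counts in CLP kidney, 3962 in CLP + MLT kidney, 16282 in CLP heart and 4703 in CLP + MLT heart. Their summed level was 917 CPM in CLP kidney and 229 CPM in CLP + MLT kidney, and 1101 CPM in CLP heart and 331 CPM in CLP + MLT heart. The composition shifted toward Cp, which held 16.4% of the counts on the 10 genes in CLP kidney and 41.0% in CLP + MLT kidney, and 10.6% in CLP heart and 30.6% in CLP + MLT heart. Lcn2 held 45.1% and 40.4% in kidney, and 19.8% and 7.91% in heart.

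Levels of different genes can be set side by side only per length, here per kilobase of the principal transcript in GENCODE M21. In CLP kidney the order of these levels began with Lcn2 at 452 CPM per kilobase, then Saa1 at 212, Lrg1 at 120, Cp at 37.4 and Saa3 at 36.7, where the intervals of Cp and Saa3 overlapped. In CLP + MLT kidney it was Lcn2 at 101, Cp at 23.3, Saa3 at 19.1 and Lrg1 at 17.2, with the last pair overlapping, and Saa1 at 6.85. Lcn2 led in both kidney libraries on either length. The places after it depend on the length used: per kilobase of all annotated exons together, Lrg1 came next in CLP kidney at 120, ahead of Saa1 at 52.1, and Lrg1 also came next in CLP + MLT kidney at 17.2.

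In CLP heart the order per kilobase was Saa3 at 364, Lcn2 at 238, Lrg1 at 210, Serpina3n at 105 and Cp at 29.1, with no overlap among them. In CLP + MLT heart it was Saa3 at 88.4, Serpina3n at 41.1, Lcn2 at 28.6, Lrg1 at 27.4 and Cp at 25.1, where Lcn2 overlapped Lrg1 and Lrg1 overlapped Cp. Saa3 led in both heart libraries. The place of Saa3 depends on the length used: per kilobase of all its annotated exons together it came behind Lrg1, Serpina3n and Lcn2 in CLP heart, at 77.6 against 210 for Lrg1.

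Between the tissues in CLP mice, 2 of the 10 genes were higher in kidney past the fold and 5 were higher in heart, where 37.1% and 33.6% of the 17419 genes tested were. Higher in kidney were Saa1, with a log2 ratio of kidney over heart of 3.63 (3.40 to 3.88), and Lcn2, with 0.91 (0.86 to 0.97). Higher in heart were Serpina3n at −4.55 (−4.74 to −4.37), Saa3 at −3.32 (−3.45 to −3.19), Orm1 at −2.44 (−3.14 to −1.83), Hp at −2.14 (−2.44 to −1.85) and Lrg1 at −0.82 (−0.88 to −0.76). Not past the fold were Saa2 at 0.57 (0.32 to 0.83), Cp at 0.35 (0.27 to 0.44) and Orm2 at 0.52 (−0.26 to 1.37). With library size as the only scaling, 5 of the 10 were higher in kidney past the fold, and the median of all genes moved from 0.08 to 0.51.

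In CLP + MLT mice, 9 of the genes passed the filter, of which 1 was higher in kidney past the fold and 6 were higher in heart, against 36.6% and 34.6% of all 16729 genes tested. Lcn2 was the gene higher in kidney, with a log2 ratio of 1.83 (1.67 to 2.00). Saa1, whose level had differed 12.4-fold between the CLP libraries, had 72 counts in each CLP + MLT library and a ratio of −0.27 (−0.76 to 0.22). Higher in heart were Serpina3n at −6.55 (−7.44 to −5.87), Hp at −2.96 (−3.50 to −2.49), Saa2 at −2.82 (−3.95 to −1.95), Saa3 at −2.20 (−2.45 to −1.97) and Lrg1 at −0.66 (−0.85 to −0.48). Orm1 was at least 12.5-fold lower in kidney, against the floor. Cp had −0.10 (−0.20 to 0.01), a sign that varied with the scaling, and Orm2, with 0 and 9 counts, did not pass the filter.

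**Figure D4:**
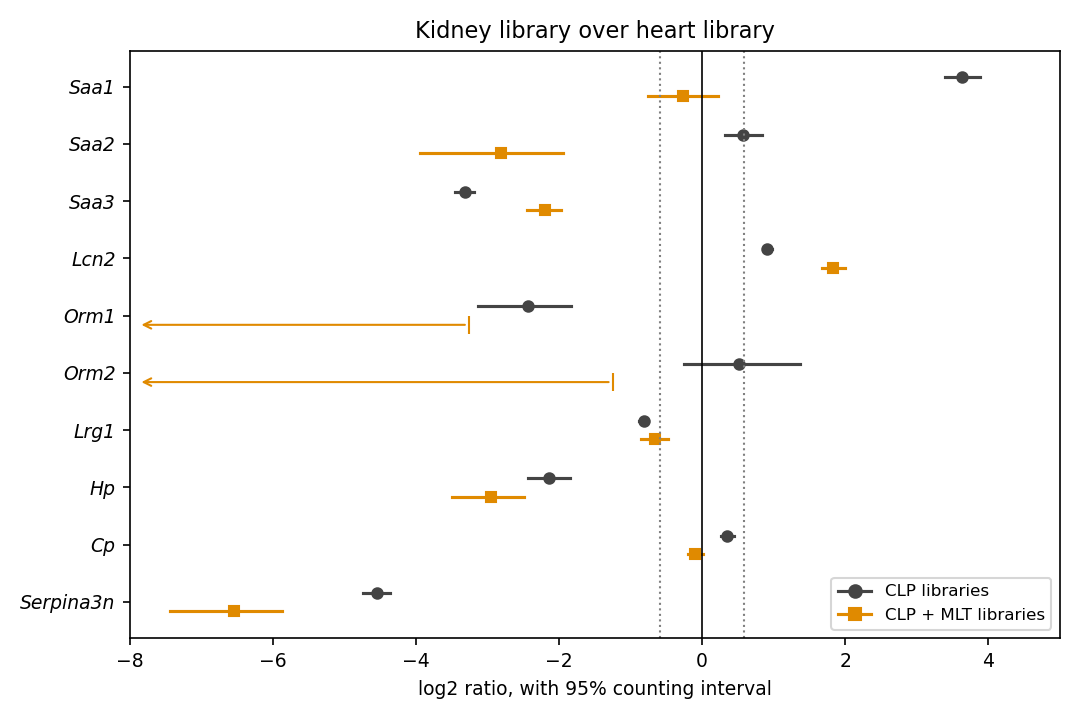
Log2 ratio of the kidney library over the heart library for each gene, with exact 95% counting intervals; circles compare the CLP libraries and squares the CLP + MLT libraries. Dotted lines mark a ratio of 1.5 in either direction, and arrows start at the bound for a gene with 0 counts in kidney. Serpina3n, Saa3 and Hp lie left of 0 in both comparisons and Lcn2 lies right of 0 in both.

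The genes have been described as made outside the liver, and their levels were set beside those of hepatocyte genes. Ahsg (fetuin A) and Serpina3k, which the liver secretes, had 0 counts in both kidney libraries, and Tat and Cyp3a11 had 0 counts there too. Cyp3a11 was also at 0 counts in both heart libraries, where Tat had 9 counts in CLP and 1 in CLP + MLT. Cps1 had 1 count in CLP kidney and 0 in each of the other libraries. Per kilobase of transcript, Alb (albumin) had 2.04 CPM in CLP kidney and 2.02 CPM in CLP + MLT kidney, where Saa1 had 212 and 6.85 CPM. Other hepatocyte markers were abundant in kidney, among them Ttr with 1209 and 793 counts, Apoh with 1325 and 636 counts and Serpina1d with 4709 and 4918 counts in CLP and CLP + MLT. The part of liver RNA in the kidney values was not tested.

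The heart libraries went partly against that description. Per kilobase of transcript, Alb had 4.65 CPM, Ahsg 3.46 CPM, Hpx (hemopexin) 11.4 CPM and Serpina3k 4.54 CPM in CLP heart. On the same scale Orm1, at 7.24 CPM, and Orm2, at 1.66 CPM, were in the range of these genes or below it. Saa2 at 18.0 CPM, Saa1 at 17.0 CPM and Hp at 16.0 CPM were above the highest of them, Hpx, by less than a factor of 2. Hpx is also on the list of further acute phase genes, and Alb, Ahsg and Serpina3k lay lower, between 3.46 and 4.65 CPM. Saa3, Lcn2, Lrg1, Serpina3n and Cp had between 29.1 and 364 CPM per kilobase in CLP heart, above each of the 4 liver genes.

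These 4 liver genes were lower in the CLP + MLT heart library, while Serpina1a, Serpina1b, Serpina1d and Apoc3 of the hepatocyte list were higher in it. The 4 stood at 2.42 CPM per kilobase for Alb, 1.75 for Ahsg, 6.47 for Hpx and 2.63 for Serpina3k. Their log2 ratios of CLP + MLT to CLP in heart were −0.99 for Alb, −1.02 for Ahsg, −0.86 for Hpx and −0.83 for Serpina3k. Beside them stood −1.07 for Saa1, −1.36 for Saa2, −1.40 for Orm1, −1.03 for Orm2 and −0.28 for Hp. The part of liver RNA in the heart values of these 5 genes was not tested.

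**Figure D5:**
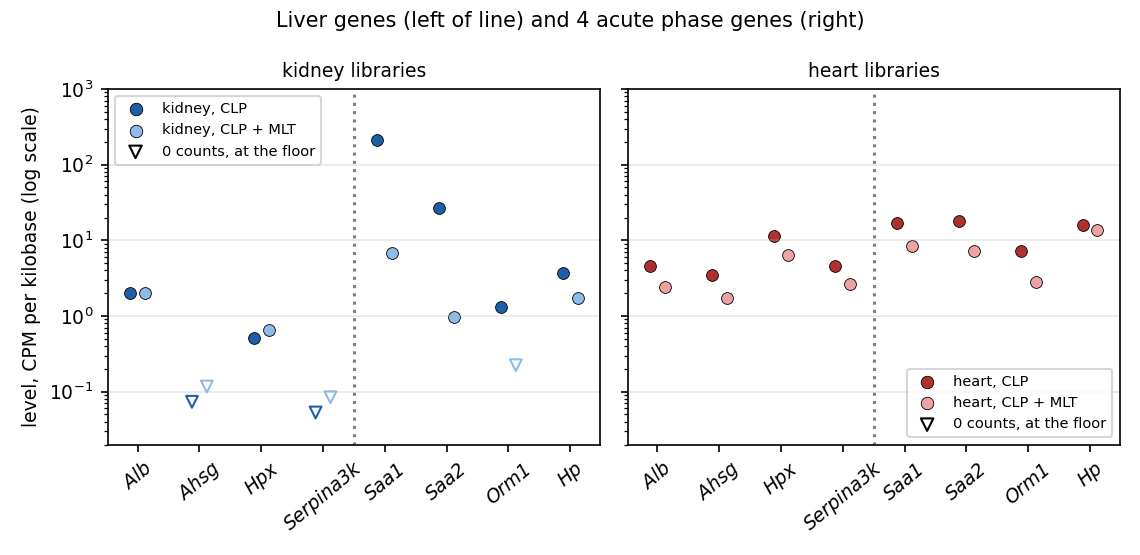
Level in CPM per kilobase of transcript, on a log axis, of 4 liver genes (left of the dotted line) and 4 acute phase genes (right of it) in the kidney libraries and in the heart libraries; dark symbols are CLP and light symbols are CLP + MLT. Open triangles are 0 counts, drawn at the floor of 3 counts. In heart both sets lie between 1.75 and 18.0, while in CLP kidney Saa1 lies at 212 and none of these 4 liver genes above 2.04.

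Over all 16 hepatocyte markers the summed level was 481 CPM in CLP kidney, 776 CPM in CLP + MLT kidney, 50.6 CPM in CLP heart and 43.8 CPM in CLP + MLT heart, with 3, 4, 2 and 2 markers at 0 counts. In kidney most of it came from Serpina1a, Serpina1d and Apoc3, which were higher in CLP + MLT, with log2 ratios of 1.17, 0.73 and 1.06. Of 12 hepatocyte markers tested in kidney, 0 were lower past the fold and 5 were higher (11.6% and 11.0% of all genes). In heart 6 of 12 were lower past the fold and 4 were higher (12.6% and 10.9% of all genes). The 4 higher in heart were Serpina1d at 2.18, Serpina1a at 1.70, Serpina1b at 1.32 and Apoc3 at 1.24, so the markers did not move one way there.

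Tissue markers were in their labelled tissue. The level of 8 kidney tubule markers in heart was 0.676% to 5.20% of that in kidney in CLP and 1.13% to 10.1% in CLP + MLT, and that of 8 cardiomyocyte markers in kidney was at most 0.707% and 1.88% of that in heart. The heart level of Saa1 in CLP was 8.01% of its kidney level, and that of Lcn2 52.7%. The kidney level of Serpina3n was 4.29% of its heart level in CLP and 1.02% in CLP + MLT. The part of kidney RNA in the heart values was not tested.

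Other cell types that could carry these genes were followed by marker lists. Neutrophils store Lcn2 and Lrg1, and their 15 markers summed to 21.9 CPM in CLP kidney, 15.3 CPM in CLP + MLT kidney, 63.0 CPM in CLP heart and 47.8 CPM in CLP + MLT heart. Of 7 tested in each tissue, 4 were lower past the fold in kidney and 3 in heart (11.6% and 12.6% of all genes), with 1 higher in each (11.0% and 10.9% of all genes). S100a9, a calprotectin chain, had log2 ratios of −0.74 (−1.09 to −0.42) in kidney and −0.80 (−1.10 to −0.51) in heart, and Ly6g and Mpo were at 0 in all 4 libraries. S100a8 was nearly level in kidney, at 3.64 CPM in CLP and 3.36 CPM in CLP + MLT, and went from 16.5 to 11.5 CPM in heart. Csf3r went from 1.97 to 2.09 CPM in kidney and from 17.6 to 17.1 CPM in heart. Retnlg was higher in both, from 0.947 to 1.74 CPM and from 2.30 to 2.81 CPM. Some granule genes of the list, at few counts, were lower by more than S100a9. Ngp went from 53 to 2 counts in kidney, a log2 ratio of −3.82 (−7.14 to −2.13). In heart it went from 37 to 10 counts, a ratio of −1.83 (−3.05 to −0.84). Ltf, the gene of lactoferrin, went from 25 to 1 counts in kidney and from 11 to 0 in heart. Granule genes did not move alike: Mmp8 went from 45 to 17 counts in kidney and from 41 to 19 in heart. Mmp9 went from 2 to 3 counts in kidney and was higher in heart, from 29 to 44.

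Macrophage markers moved the other way in part. Their summed level was 118 CPM in CLP kidney and 224 CPM in CLP + MLT kidney, and 320 CPM in CLP heart and 370 CPM in CLP + MLT heart. Of 9 tested in kidney, 3 were higher and 0 lower past the fold (11.0% and 11.6% of all genes). Of 10 tested in heart, 3 were higher and 3 lower (10.9% and 12.6% of all genes). The sums rest much on Lyz2, from 20.1 to 70.6 CPM in kidney and from 67.5 to 153 CPM in heart. In kidney Csf1r also went from 41.5 to 90.9 CPM, and in heart C1qa went from 60.0 to 35.7 CPM. Lyz2 was higher in the CLP + MLT library of each tissue, by 1.81 in kidney and 1.13 in heart on the log2 scale, while Mrc1 was lower in heart at −0.88. Fat also expresses haptoglobin, orosomucoid and lipocalin 2, and its 8 markers summed to 2.77 CPM in CLP kidney, 0.869 CPM in CLP + MLT kidney, 55.0 CPM in CLP heart and 16.9 CPM in CLP + MLT heart. Nearly all of the heart sum was Cidea, with 797 counts in CLP and 222 in CLP + MLT. The other fat markers had few counts in heart and did not move one way. Adipoq was lower like Cidea, with 12 and 1 counts, and Cfd was higher, with 2 and 12. Ucp1, which marks brown fat, had 1 count in each heart library. In kidney 2 fat markers were tested and both were lower past the fold (11.6% of all genes). Plin1 went from 33 to 1 counts there and Cidec from 32 to 8. In heart the summed cardiomyocyte markers were 35027 CPM in CLP and 22674 CPM in CLP + MLT. The part of these cell types in the ratios of the 10 genes was not tested.

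Further acute phase genes gave the setting of these ratios. Of 26 listed, 19 were tested in kidney, and 13 of them were lower and 1 higher past the fold in the CLP + MLT library, with a median log2 ratio of −0.99, in a comparison where 11.6% of all genes were lower and 11.0% higher past the fold. Among genes averaging at least 50 counts, the lowest ratios were those of the fibrinogen chains Fgb at −7.34 (−8.13 to −6.71), Fga at −3.93 and Fgg at −3.77, then Saa4, the constitutive serum amyloid A, at −3.05 and Cd14, the lipopolysaccharide co-receptor, at −2.83. In heart 18 were tested, of which 8 were lower and 0 higher past the fold (12.6% and 10.9% of all genes), with a median of −0.53. Among genes averaging at least 50 counts there, the metallothioneins Mt1 at −2.12 and Mt2 at −1.55, the protease inhibitor Timp1 at −2.09 and Lbp, which carries lipopolysaccharide, at −1.43 had the lowest ratios. Below that limit Il1rn, the gene of the IL-1 receptor antagonist, was lower still at −2.23 (−3.43 to −1.28), from 49 to 10 counts. Negative acute phase genes, whose plasma proteins drop in inflammation, had a median of 0.18 over 7 genes in kidney and −0.67 over 7 in heart. Among them Trf, the gene of transferrin, was lower in kidney at −2.39 and Apoa1 was higher at 1.34.

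Genes of the signalling above the acute phase were followed in the same way. Of 34 listed genes of IL-6, IL-1, TNF, NF-kB and C/EBP signalling, 29 were tested in kidney, with 9 lower and 0 higher past the fold (11.6% and 11.0% of all genes) and a median log2 ratio of −0.35. Stat3 was at −1.10 (−1.22 to −0.99) in kidney, and Socs3, a feedback inhibitor induced by STAT3, was at −1.21 (−1.54 to −0.89). Bcl3, a partner of NF-kB, was at −1.15 and Tnfrsf1a, a TNF receptor, at −0.90. In heart 28 were tested, with 3 lower and 2 higher past the fold (12.6% and 10.9% of all genes) and a median of −0.04, so that the share lower there was near that of all genes. The difference between the tissues was not tested. In heart Stat3 was at −0.25 and Socs3 at −0.10. The 2 genes higher there were Tnf at 1.53 (0.69 to 2.51), from 15 to 44 counts, and Cebpa at 1.02 (0.31 to 1.81), from 24 to 49 counts. The 3 lower were Tlr2 at −0.78, Il17ra at −0.67 and Tlr4 at −0.63. Il6 itself had 4, 1, 0 and 1 counts in CLP kidney, CLP + MLT kidney, CLP heart and CLP + MLT heart, too few to compare at this depth.

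Receptors and partners of the 10 proteins had medians near 0, at −0.03 in kidney and −0.13 in heart. Of 20 listed, 18 were tested in kidney, with 5 lower and 2 higher past the fold (11.6% and 11.0% of all genes). In heart 19 were tested, with 3 lower and 2 higher (12.6% and 10.9% of all genes). Hmox1, the heme oxygenase that acts after haptoglobin and its receptor have brought heme into the cell, was at −2.65 (−2.80 to −2.52) in kidney. Tgfbr2, a receptor of the TGF-beta pathway on which LRG1 acts, was at −0.93 in kidney. Slc40a1, the iron exporter that ceruloplasmin serves, was at −0.71 in kidney and −1.19 in heart. Lrp2, a tubular receptor that takes up lipocalin 2, was at 1.50 in heart, where it was counted among the kidney tubule markers as well. Of these 8 markers, 4 were higher and 1 lower past the fold in CLP + MLT heart (10.9% and 12.6% of all genes), with a median of 0.94.

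The genes with the most similar profile were sought among 13475 genes averaging 50 counts or more, as the smallest Euclidean distance between log2 CPM centred on the mean of the 4 libraries. The profile of Cp was matched within 0.03 by Atf6, and that of Hp within 0.20 by 4732471J01Rik. The nearest gene to Saa3 was Npas2 at 0.48, followed by Cdkn1a at 0.58 and Msr1 at 0.72. Serpina3n and Orm1 had the same nearest gene, Slc10a6, at 0.82 and 1.18. The nearest to Lrg1 was Syt12 at 1.14, to Lcn2 A930001C03Rik at 1.33, to Saa2 Myrf at 1.34 and to Saa1 Plin2 at 1.74, with Hmox1 at 1.75 and Fga at 1.83. Orm2 was nearest to Saa2, at 1.29. With only 4 libraries behind each profile, the likeness is a description of these libraries.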

How the data were processed

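RNA-seq libraries were made with a poly-A kit that does not mark strand. Per the labels and the methods, trimming by the authors used trim-galore and alignment to mm10 used HISAT2 2.1.0, and raw read counts per gene were deposited; HTSeq is named in the submitters' processing notes, and neither its settings nor the annotation is stated in the sources. The 5 totals in each file that name no gene (65.5% to 72.8% of all reads listed) were left out. Symbols were matched with GENCODE M21 for 55141 of 55401 identifiers.

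The 10 genes, the context lists and the tests were chosen with earlier results of these data known. With 1 library per group no spread between mice could be estimated, so no p-value is reported. CPM and log2 ratios were computed with TMM factors (R 4.3.3, edgeR 4.0.16), Python 3.11.15, numpy 2.4.6, pandas 2.3.3 and scipy 1.17.1, after a check on simulated counts, and figures were drawn with matplotlib 3.10.9. Intervals are Clopper-Pearson intervals, on the counts of 2 libraries for ratios and on those of 1 library for shares and single levels. For the difference between the heart and kidney ratios they are exact conditional intervals of the odds ratio over the 4 libraries. Named from each context list were up to 5 genes with the largest ratio among those averaging 50 counts or more, and liver markers at any level. Other genes were also named where a list result needed them, after their values were seen. These were Stat3, Socs3, Tnf and Cebpa in heart, Il6, Apoa1, Serpina1a, Serpina1d, Serpina1b, Ly6g, Mpo, Ngp, Ltf, Mmp8, Mmp9, Hpx, Mrc1, Il1rn, Ucp1, Adipoq, Cfd, Plin1 and Cidec. S100a8, Csf3r, Retnlg, Csf1r and C1qa were named in the same way. Alternatives were scaling by library size, DESeq2 1.42.0 size factors, upper quartile or TMM over 4 libraries, other filters, a prior count of 5, other limits for a call (among them edgeR's exact test at an assumed variation of 0.4), and libraries without mitochondrial and haemoglobin genes.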

Additional observations from a re-analysis of the deposited data

How the results depend on the processing

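No paired analysis was possible because each group holds 1 library, so the groups compared share fewer than 2 replicate numbers, and leaving out a library would leave no comparison. No ratio of the 10 genes changed sign in any melatonin comparison or in the CLP tissue comparison under another scaling, filter or prior count, and in the CLP + MLT tissue comparison the sign held for 8 of 9, Cp being the exception. Of 306 alternative values of single ratios, 291 stayed the same and 15 moved, 14 of them under scaling by library size only. Of the counts of members past the fold, 7 values moved. Scaling by library size only gave 5 genes higher in kidney in CLP mice in place of 2, and a required fold of 2 gave 1. With library size only the median of all genes was 0.51. The share of all genes past the fold was not counted under either setting, so nothing is read from these counts. The other 5 values that moved came from edgeR's exact test at an assumed variation of 0.4, a value that 1 library per group cannot check. It was run on genes selected on the same ratios, so its calls support nothing. By it 6 of the 10 genes were lower in CLP + MLT kidney in place of 10 (0.396% of all genes) and 2 in CLP + MLT heart in place of 8 (0.132% of all genes). In CLP kidney over heart it gave 3 lower (main value 5) and 1 higher (main value 2), against 10.5% and 12.9% of all genes. In CLP + MLT kidney over heart it gave 0 higher (main value 1), against 11.9% of all genes. The cause was not tested. Depth limits the low libraries of Orm1, Orm2, Saa2 and Serpina3n, which hold fewer than 20 counts.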
